A study of Homo sapiens with 12 samples.

Results

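Immediate early genes were followed across cultures of Rh30, a human alveolar rhabdomyosarcoma cell line that carries the PAX3-FKHR fusion. The 10 genes were FOS, FOSB, FOSL1, JUN, JUNB, EGR1, EGR2, EGR3, IER3 and DUSP1, chosen by symbol, and all 10 were found among the 30238 gene names of the array, on 12 of its 41000 gene probes. FOSL1 and JUNB each had 2 probes. RNA came from parental Rh30 cells (WT), from a control clone transfected with a non-targeting shRNA (CON), and from a clone transfected with an shRNA against PAX3-FKHR (KD1). All 3 cultures grew for 24 h in serum-containing DMEM before RNA extraction. Both clones were kept in puromycin at 1 µg/mL and the parental cells were not, so shRNA vector, selection and puromycin were shared by KD1 and CON and absent from WT. CON and KD1 are each a single clone, and by the study's account KD1 keeps part of its PAX3-FKHR. The labels give 2 samples per culture, called biological replicates, hence 6 RNA extracts. Within a replicate number each pair of cultures was hybridized together on 2 dye-swapped two-colour arrays, which makes 12 arrays with 4 channels per extract.

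Immediate early genes are transcribed within minutes of a signal such as serum or a growth factor, with no need for new protein synthesis, and their mRNAs are mostly short-lived. FOS and JUN family proteins pair to form the AP-1 transcription factor, EGR proteins are zinc finger transcription factors, and DUSP1 is a phosphatase that switches off the MAP kinases that induce the class. In serum-responsive cells much of this induction passes through serum response factor, which binds CArG boxes, and through CREB, which binds cAMP response elements.

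The stretches before the transcription start of FOS, EGR1 and EGR2 are shown because these genes varied most among the extracts, and that of DUSP1 because it varied less and holds a full cAMP response element. Promoter windows of 300 bases (250 before and 50 after the start) were taken from RefSeq on GRCh38.p14, and 7 of the 10 genes matched. FOSL1, EGR3 and IER3 have no entry. Lines run 5′ to 3′ on the gene's strand, capitals mark CArG boxes and the letters TGACG on either strand, and each line ends 1 base before the start except that of EGR2, which covers bases -75 to -46 before 1 of the 3 starts listed for that gene. The FOS stretch is chr14:75278678-75278827 on the plus strand, the EGR1 stretch chr5:138465329-138465478 on the plus strand, the EGR2 stretch chr10:62816412-62816441 on the minus strand and the DUSP1 stretch chr5:172771196-172771345 on the minus strand.
FOS: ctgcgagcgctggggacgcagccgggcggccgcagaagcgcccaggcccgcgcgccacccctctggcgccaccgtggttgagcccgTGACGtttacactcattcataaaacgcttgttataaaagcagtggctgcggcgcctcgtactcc
EGR1: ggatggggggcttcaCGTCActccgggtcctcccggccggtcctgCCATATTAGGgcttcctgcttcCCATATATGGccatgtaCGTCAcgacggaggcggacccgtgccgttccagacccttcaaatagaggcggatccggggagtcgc
EGR2: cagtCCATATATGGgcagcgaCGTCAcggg
DUSP1: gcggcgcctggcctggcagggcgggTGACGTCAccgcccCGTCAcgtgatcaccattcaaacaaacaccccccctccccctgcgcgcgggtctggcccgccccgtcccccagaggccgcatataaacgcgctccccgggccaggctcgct

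CArG boxes were present in the windows of 2 of the 7 matched genes. EGR1 held 2 of them, at bases -105 to -96 and -83 to -74 from its start, and EGR2 held 1, at bases -71 to -62. Bases further upstream than these windows were not searched. A gene with no CArG box in its window, such as FOS, may therefore hold one further upstream. Over all 35116 promoter windows, 1.29% held a CArG box. Here and below a matched gene counted if any of its windows held the motif, and EGR2 had 3 windows. The shares over all windows count each window by itself. The EGR site of EGR2, given below, lay in the window of another start than its CArG box. The letters TGACG were found on either strand in all 7 matched genes and in 24.6% of all windows. The full element TGACGTCA, which contains TGACG, was found in DUSP1 alone among the 7 genes, at bases -125 to -118, and in 1.85% of all windows. The TATA box TATAAA was found in FOS, FOSB, JUNB and DUSP1 and in 11.5% of all windows. The EGR site GCGNGGGCG occurred in EGR1 and EGR2 (9.43% of all windows), the ETS core CCGGAA in FOSB (17.2%), and the homeodomain core ATTA in FOS, JUN, EGR1 and EGR2 (50.2%), where in EGR1 it overlaps a CArG box. The AP-1 site TGANTCA (7.71% of all windows) and the form TGACGNTCA (0.313%) were in none of the 7. These are matches of letters on either strand, not sites of binding.

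Arrays had between 71.1% and 73.6% of gene spots well above background in Cy3 and between 64.4% and 67.8% in Cy5, and no saturated spot was recorded. Of 7 skeletal muscle lineage markers, 6, including MYOD1, MYOG and DES, were well above background in all 24 channels, and MYF6 was well above in 3. A probe across the fusion junction was not found by gene name. The log2 ratios of KD1 over CON in replicates 1 and 2 were -0.39 and -0.46, 0.16 and -0.33, and -0.25 and -0.32 for 3 PAX3 probes, and -0.26 and -0.58, and -0.25 and -0.52, for 2 FOXO1 (FKHR) probes. None of these 5 probes passed limma's test (adjusted p from 0.326 to 0.892). The extract WT replicate 2 stood apart from the rest. EPCAM, an epithelial adhesion molecule, was well above background in all 4 of its channels and in none of the other 20, with a log2 level of 7.36 against 1.77 to 1.98 in the other extracts. KRT19, an epithelial keratin, was at 8.79 there against 4.71 to 5.61, and CDH1 was well above background in 2 of its 4 channels and in none elsewhere. Of 5 epithelial markers, 4 were well above background in all 4 channels of WT replicate 2 against 2 or 3 in the other extracts. Their summed linear level was 3447 there against 1606 to 2278, the last in WT replicate 1. The remaining epithelial markers did not set that extract apart alike. KRT18 was at 10.40 and 10.72 in the WT replicates against 9.36 to 9.79 in the clones. KRT8 was at 10.15 in WT replicate 2 and 10.16 in KD1 replicate 2. Of 5 leukocyte markers, CD3E and CD14 were well above background in all 24 channels and PTPRC in none, and their summed linear level ran from 197.1 to 235.8. LYZ, also of that list, was well above background in 2 of 4 channels of WT replicate 2 and in none elsewhere. Its level was 4.57 there against 2.19 to 3.73, the last in WT replicate 1. Of 5 endothelial markers, PECAM1 and VWF were well above background in all 24 channels and KDR in none, and their summed level ran from 724 to 1810, highest in KD1 replicate 2. VWF was at 6.89 and 9.35 in the replicates of KD1, 5.83 and 6.32 in CON, and 5.86 and 5.66 in WT, and the part of this in the replicate differences of KD1 was not tested. Values of WT in replicate 2 are therefore given apart from those in replicate 1, and the part of this epithelial and LYZ signal in them was not tested.

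Levels below are log2 of the processed signal of a channel, normalized between arrays (Aquantile) and averaged over the 4 channels of an extract, and 1 unit is a 2-fold difference. They compare extracts for 1 probe and not genes with each other. FOS, the founding AP-1 partner, is probed at chr14:74817967-74818026 (NCBI36). Its log2 level was 8.54 in KD1 replicate 1 and 11.33 in KD1 replicate 2, 8.33 and 11.72 in CON, and 8.90 and 9.24 in WT. Replicate 2 of KD1 and of CON therefore stood far above the other 4 extracts, and their single channels (11.05 to 11.74 in KD1, 11.64 to 11.81 in CON) lay above every channel of the other extracts, of which the highest was 9.55 in WT replicate 2. In bulk RNA, fewer cells expressing a gene and less RNA per cell cannot be told apart.

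EGR1 and EGR2 shared the 2 highest extracts with FOS, and WT replicate 2 came next for all 3 genes. EGR1, probed at chr5:137832790-137832849 (NCBI36), was at 10.85 and 13.70 in the replicates of KD1, at 10.60 and 13.62 in CON, and at 10.09 and 11.26 in WT. EGR2, probed at chr10:64241856-64241915 (NCBI36), was at 6.24 and 9.05 in KD1, at 6.29 and 8.93 in CON, and at 6.21 and 6.66 in WT. For both genes replicate 2 of the clones was highest and did not overlap the other extracts in any channel. For EGR2 the channels of all 3 replicate 1 extracts overlapped. EGR3, the third zinc finger member, was well above background in 0 of 24 channels, and no level, fold or order is given for it.

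**Figure D1:**
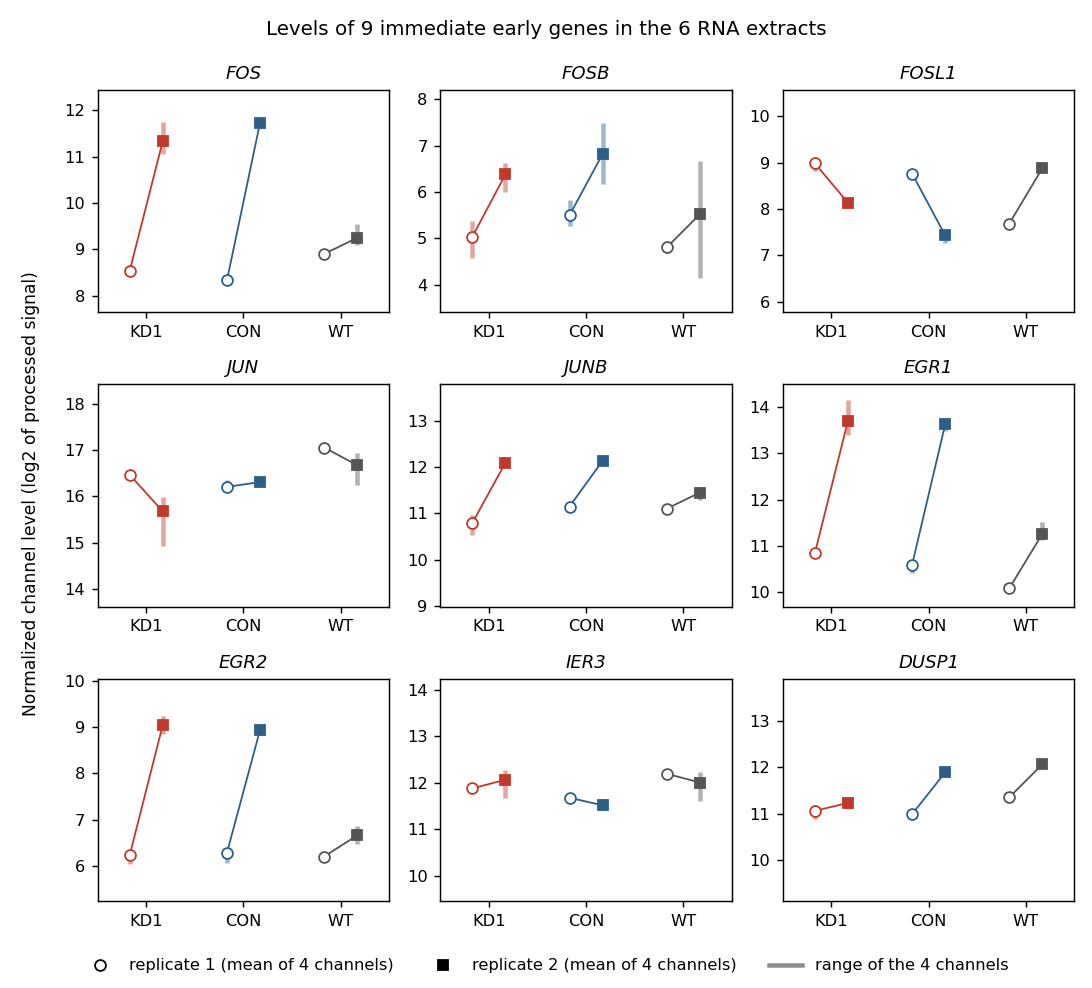
Levels of 9 immediate early genes (log2 of the normalized processed signal, y axis, 1 panel per gene, each spanning the same number of log2 units) in KD1, CON and WT. Open circles are replicate 1 and filled squares replicate 2, each the mean of 4 channels, with bars for the range of those channels and a line joining the replicates of a culture. FOS, EGR1 and EGR2 lie far higher in replicate 2 of KD1 and CON (FOS 11.72 against 8.33 in CON) and the replicates are closer in WT (FOS 9.24 and 8.90), while FOSL1 lies lower in replicate 2 of the clones.

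The remaining AP-1 members fell into 3 kinds. JUNB, which forms weaker AP-1 dimers than JUN, was at 10.79 and 12.09 in KD1, at 11.15 and 12.13 in CON, and at 11.10 and 11.45 in WT. Its replicate 2 extracts of both clones were again highest, by a smaller step, and the other JUNB probe differed between replicates by 1.29 in KD1, 0.95 in CON and 0.49 in WT. FOSB was dim, at 5.03 and 6.38 in KD1, 5.50 and 6.82 in CON, and 4.80 and 5.52 in WT. Its highest extracts were the same, although the 4 channels of WT replicate 2 ran from 4.14 to 6.67 and overlapped them.

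FOSL1, encoding the Fra-1 partner of JUN, went the other way in the clones. Its level was 8.98 and 8.13 in KD1, 8.76 and 7.43 in CON, and 7.68 and 8.88 in WT. Replicate 2 was below replicate 1 in KD1 and CON, and above it in WT, where the epithelial markers were also raised. The other FOSL1 probe gave differences of -0.97, -1.44 and 1.43 for KD1, CON and WT.

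JUN, the main AP-1 partner of FOS, was at 16.46 and 15.67 in KD1, 16.20 and 16.31 in CON, and 17.05 and 16.67 in WT. WT was highest in each replicate, and the channels of KD1 replicate 2 spread from 14.93 to 15.99. IER3, a stress-inducible regulator of cell survival, stayed within 0.68 over the 6 extracts, from 11.51 in CON replicate 2 to 12.20 in WT replicate 1. DUSP1 was at 11.06 and 11.23 in KD1, 10.99 and 11.89 in CON, and 11.35 and 12.06 in WT, so that its replicate 2 was higher in CON and WT and close to replicate 1 in KD1.

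KD1 was compared with CON to ask which transcripts follow the knockdown among cells handled alike. No tested member passed limma's test at an adjusted p of 0.05 (0 of the 7 tested, and 0 at an unadjusted p of 0.05), where 1.79% of all 21937 tested probes did and 17.2% had an unadjusted p under 0.05. The ratios were small in each replicate for FOS, at 0.25 and -0.45 in replicates 1 and 2 (mean log2 ratio -0.10 ± 0.50, SD, n = 2, adjusted p = 0.971). EGR1 stood at 0.26 and -0.06 (0.10 ± 0.23, adjusted p = 0.954). EGR2 was not tested, being above the negative controls on 3 of 4 arrays, and its ratios were 0.03 and 0.12. Thus the genes that differed most between replicates of KD1 and of CON differed little between KD1 and CON within a replicate.

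The other members did not pass in that comparison either. JUNB gave -0.42 and -0.13 (adjusted p = 0.648), JUN 0.27 and -0.45 (0.899), DUSP1 0.06 and -0.67 (0.571), and FOSL1 0.30 and 0.63 (0.732). IER3 had the lowest adjusted p of the 7, 0.338, at 0.22 and 0.65, and was higher on all 4 arrays, as were 24.9% of all tested probes. FOSB, above the negative controls on 3 of 4 arrays and not tested, gave -0.46 and -0.32. The standard error of the mean log2 ratio ran from 0.20 for IER3 to 0.64 for FOS. Of the 7 tested members, 2 were higher on all 4 arrays (FOSL1 and IER3), 1 was lower on all 4 (JUNB; 26.3% of all probes were), and 4 had replicates of opposite sign (FOS, EGR1, JUN and DUSP1; 28.3% of all probes). A mean of at least 2-fold was reached by 0 of 7 in either direction, beside 1.91% of all probes higher and 2.08% lower. No member met the rule that the study set for its own list, which is a mean change of at least 2-fold in KD1 against both CON and WT with the same sign on every array. Of 21882 probes, 0.526% met that rule as higher in KD1 and 0.855% as lower.

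**Figure D2:**
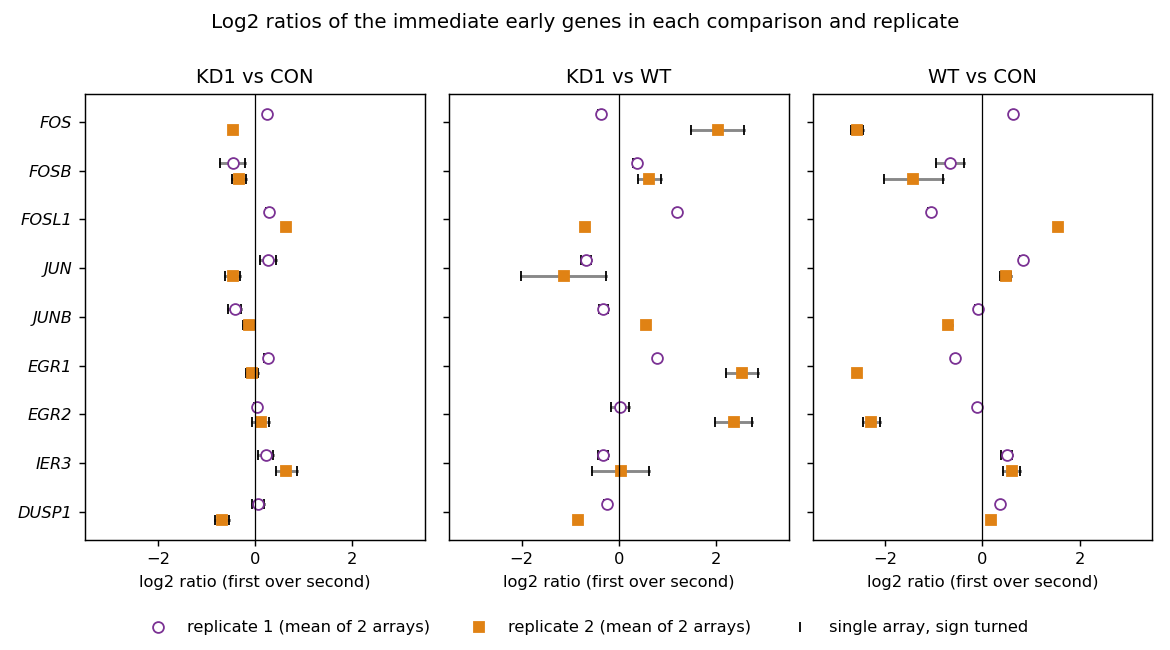
Log2 ratios of 9 immediate early genes (x axis, first culture over second) in the 3 comparisons. Open circles are replicate 1 and filled squares replicate 2, each the mean of a dye-swap pair, and ticks are single arrays. KD1 vs CON stays near 0 for FOS, EGR1 and EGR2 in both replicates, while their replicate 2 values lie between 2.04 and 2.54 in KD1 vs WT and between -2.59 and -2.29 in WT vs CON.

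KD1 against WT sets the knockdown clone beside cells that never carried a vector. Here too 0 of the 8 tested members passed the adjusted test, against 1.05% of 24884 probes, and 2 members, JUN and EGR1, had an unadjusted p under 0.05, as did 17.2% of probes. EGR1 was higher in KD1 on all 4 arrays, at 0.79 in replicate 1 and 2.54 in replicate 2 (mean 1.67 ± 1.24, SD, n = 2, adjusted p = 0.141). EGR2 was at 0.02 and 2.37 (adjusted p = 0.306), and FOS at -0.36 and 2.04 (adjusted p = 0.558), its replicate 2 arrays reading 1.50 and 2.59. The large values all came from replicate 2, which used the WT extract with raised epithelial markers. For each of these genes that WT extract was above WT replicate 1, and KD1 replicate 2 was further above KD1 replicate 1. For FOS the levels were 9.24 against 8.90 in WT and 11.33 against 8.54 in KD1. Without either replicate 2 extract the same replicate 1 values remain, so leaving out the WT extract cannot show its part.

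JUN was lower in KD1 than in WT on all 4 arrays, at -0.67 and -1.13 (mean -0.90 ± 0.32, adjusted p = 0.132), although the dye-swapped arrays of replicate 2 lay far apart, the nearer to 0 reading -0.26. DUSP1 gave -0.25 and -0.84 (adjusted p = 0.306). FOSL1 changed sign, from 1.20 in replicate 1 to -0.70 in replicate 2, and its other probe from 1.52 to -0.80. JUNB changed sign as well, from -0.32 to 0.56, and IER3 stood at -0.32 and 0.04. FOSB was not tested here and gave 0.37 and 0.63. Of the 8 tested members, 4 had replicates of opposite sign (FOS, FOSL1, JUNB and IER3), beside 43.6% of all tested probes. A mean at least 2-fold higher was reached by 2 of 8, EGR1 and EGR2 (2.09% of all probes; with normexp and loess EGR2 was at 0.64), and a mean at least 2-fold lower by 0 of 8 (2.67%). JUN and DUSP1 were lower on all 4 arrays (16% of all probes) and EGR1 alone was higher on all 4 (16.2%).

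WT against CON leaves the fusion untouched and differs by the vector, selection and cloning. None of the 9 tested members passed the adjusted test, against 1.37% of 26595 probes, and 4 had an unadjusted p under 0.05 (FOSB, JUN, EGR1 and IER3), beside 16.5% of probes. FOSB had the lowest adjusted p, 0.0853, at -0.67 and -1.42 (mean -1.05 ± 0.53, n = 2), lower in WT on all 4 arrays. EGR1 was at -0.57 and -2.59 (mean -1.58 ± 1.42, adjusted p = 0.149) and EGR2 at -0.12 and -2.29 (adjusted p = 0.308). FOS went from 0.62 in replicate 1 to -2.59 in replicate 2 (adjusted p = 0.496), and FOSL1 went from -1.06 to 1.56 (adjusted p = 0.865). All 4 arrays of this comparison lay on 1 slide.

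In the same comparison JUN was higher in WT, at 0.84 and 0.48 (mean 0.66 ± 0.25, adjusted p = 0.238), and IER3 likewise, at 0.50 and 0.60 (mean 0.55 ± 0.07, adjusted p = 0.267). DUSP1 gave 0.37 and 0.18 (adjusted p = 0.631) and JUNB -0.08 and -0.72 (adjusted p = 0.489). JUN, IER3 and DUSP1 were higher on all 4 arrays, as were 20.1% of all tested probes, and FOSB, JUNB, EGR1 and EGR2 were lower on all 4, as were 23.3%. A mean at least 2-fold lower in WT was reached by 3 of 9 members, FOSB, EGR1 and EGR2 (2.1% of all probes), and a mean at least 2-fold higher by 0 of 9 (2.47%). With normexp background correction and loess EGR1 stayed past 2-fold at -1.49, while FOSB was at -0.27 and EGR2 at -0.66, and with median centring FOSB was at -0.71. FOS and FOSL1 were the 2 of 9 with replicates of opposite sign, beside 39.5% of all probes. The comparisons KD1 vs WT and WT vs CON share the WT extracts, and their values are therefore not independent of each other.

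For FOS, EGR1 and EGR2 the difference between the replicates of a clone exceeded their mean difference in every comparison of cultures. From replicate 1 to replicate 2 the FOS level differed by 2.80 in KD1, 3.40 in CON and 0.35 in WT. EGR1 differed by 2.85, 3.03 and 1.17, and EGR2 by 2.81, 2.64 and 0.46. Among the 24193 probes well above background in all 24 channels, 0.0124% had a larger absolute difference in CON than FOS, 0.0289% a larger one than EGR1 and 0.0537% a larger one than EGR2. In KD1 these shares were 0.24%, 0.215% and 0.236%, and in WT they were 37.9%, 1.63% and 25.8%.

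Being at least 2-fold higher in replicate 2 of both clones applied to 3 of the 8 members well above background in all channels, namely FOS, EGR1 and EGR2, and to 169 of 24193 probes (0.699%). In WT, 2 of the 8, EGR1 and FOSL1, were at least 2-fold higher in replicate 2, against 1% of probes. With 1 extract per culture and replicate number, a difference between replicates has no replicate of its own and was not tested. Whether it belongs to the culture, the flask or the RNA extract cannot be told apart. For KD1 the replicate 1 and replicate 2 arrays lay on different slides, and the part of the slide was not tested. On its arrays with WT the replicate difference of KD1 was 2.90 for FOS, 3.05 for EGR1 and 2.84 for EGR2. WT in the other channel of those arrays gave 0.50, 1.29 and 0.49.

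The difference was read alike on separate sets of arrays. On the KD1 vs CON arrays alone, which carry no WT RNA, replicate 2 exceeded replicate 1 for FOS by 2.69 in KD1 and 3.39 in CON. The replicates of that set lay on different slides. On the WT vs CON arrays alone, all on 1 slide, the FOS difference was 3.40 in CON and 0.19 in WT. EGR1 gave 2.98 and 3.07 in CON on these sets of arrays, and EGR2 gave 2.69 and 2.59. FOSL1 gave -1.28 and -1.38 in CON, while WT on the slide shared with CON gave 1.24.

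**Figure D3:**
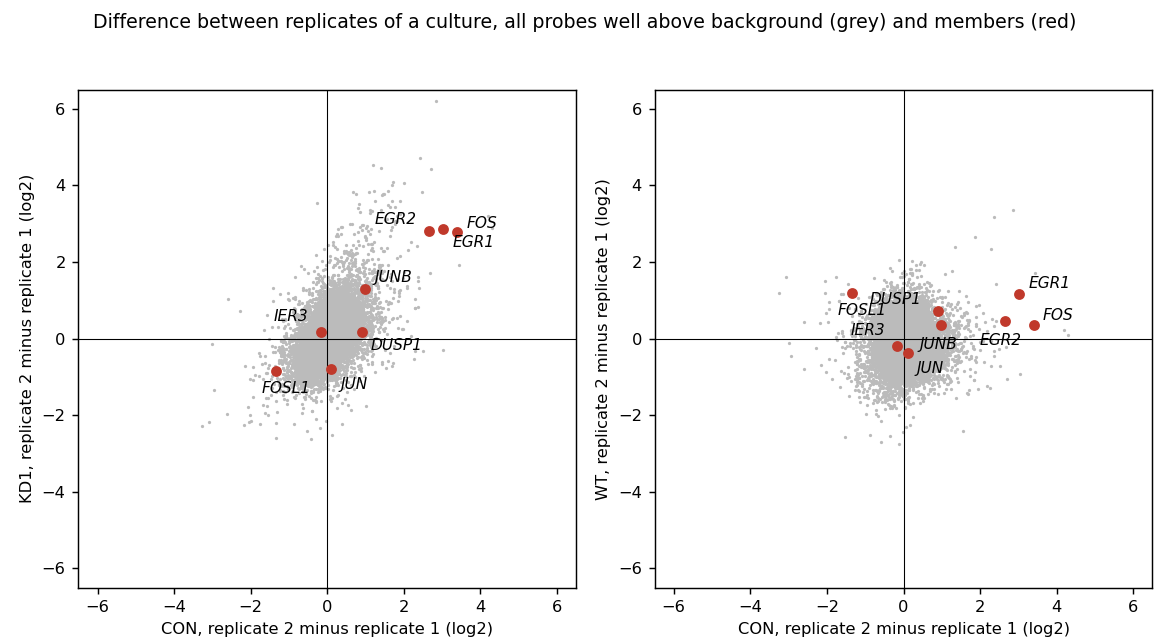
Replicate 2 minus replicate 1 (log2 level) in CON on the x axis of both panels, against KD1 (left) and WT (right), for 24193 probes in grey and 8 members in red. FOS, EGR1 and EGR2 lie at the upper right against KD1 (between 2.64 and 3.40 on both axes) and lie low against WT (0.35, 1.17 and 0.46), and FOSL1 is at -1.33 in CON, -0.85 in KD1 and 1.19 in WT.

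Over all 24193 probes the replicate differences of KD1 and CON correlated at r = 0.54, those of KD1 and WT at -0.06 and those of CON and WT at -0.01. These correlations run across probes of the same extracts and are given as a description. Genes with a level pattern like that of FOS over the 6 extracts were sought among 24192 probes. The most alike was HES1, a transcriptional repressor best known as a Notch target (r = 0.998), and the next named genes were RPL3, FCHSD2, VASH2 and ISYNA1. RPL3 spanned 0.46 and FCHSD2 0.37 on the log2 scale, against 4.19 for HES1. EGR2 ranked 11 (r = 0.98), EGR1 32 (r = 0.96) and the brighter JUNB probe 34 (r = 0.96). DUSP1 was at r = 0.43, IER3 at -0.25, JUN at -0.53 and FOSL1 at -0.67. Each r rests on 6 points dominated by the 2 high extracts, and the extracts share arrays.

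Other genes of the immediate early response were taken from lists chosen by textbook role. Of 24 other inducible transcription factors, 21 were well above background in all channels, and 2 of them, HES1 and NR4A1, were at least 2-fold higher in replicate 2 of both clones. HES1 was at 8.20 and 11.41 in KD1, 7.96 and 12.15 in CON, and 8.86 and 9.08 in WT, which is the order of FOS. NR4A1, an orphan nuclear receptor of the early response, was at 6.52 and 8.80 in KD1, 6.63 and 8.08 in CON, and 7.56 and 8.02 in WT. EGR4, the remaining EGR gene, was dimmer and not above background in every channel, with differences of 1.81, 2.75 and 0.07. MAFF, a small MAF protein, differed in WT (1.31) and not in the clones (0.20 and -0.02).

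No gene of the other lists reached 2-fold in both clones: 0 of 30 induced effectors, 0 of 22 feedback inhibitors, 0 of 27 upstream kinases and serum response factor partners, and 0 of 12 heat shock genes. Over all probes 0.699% did, so a count of 0 lies near that share and is no contrast with the members. Smaller steps are not covered by this count. The median replicate difference of the 8 members was 0.74 in KD1, 0.94 in CON and 0.40 in WT, beside -0.05, -0.02 and 0.03 over all probes. It was 0.45, 0.38 and 0.29 for the other inducible transcription factors, 0.47, 0.17 and 0.21 for the feedback inhibitors, and 0.16, 0.03 and 0.11 for the induced effectors. For the heat shock genes it was -0.25, -0.38 and 0.07, and for the upstream kinases and partners -0.03, -0.10 and 0.21. NFKBIA, a feedback inhibitor of NF-kappaB, was the 1 gene of the feedback list with a 2-fold step in WT (1.04).

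**Figure D4:**
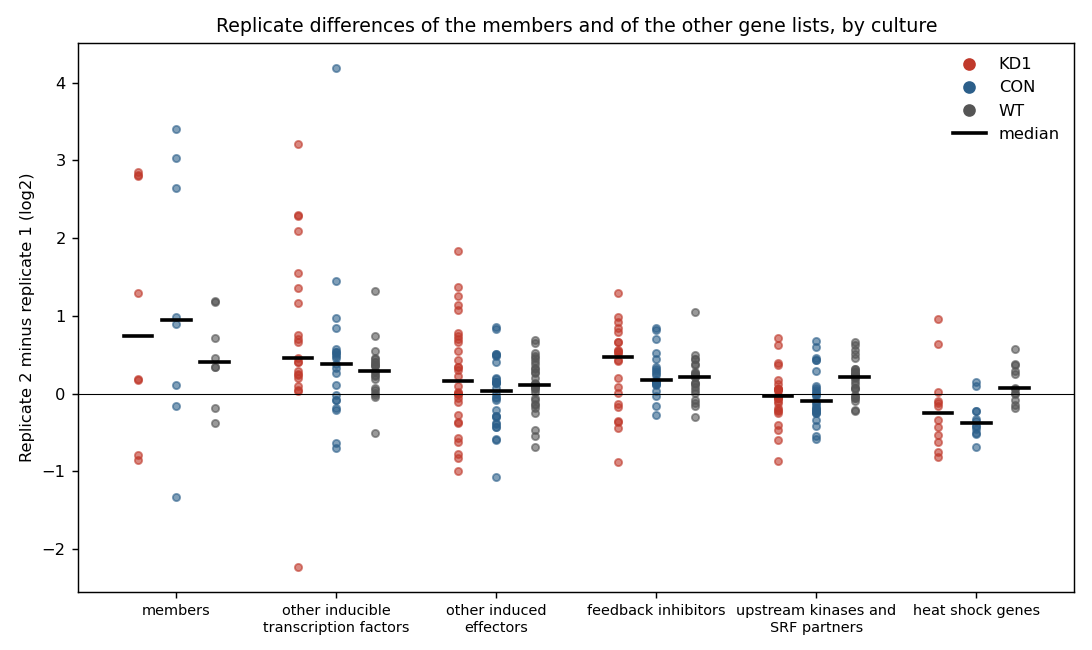
Replicate 2 minus replicate 1 (log2 level, y axis) for each gene of the members and of 5 further lists, in KD1 (red), CON (blue) and WT (grey), with black bars for medians. All points above 2 belong to the members and the other inducible transcription factors (HES1 at 4.19 in CON is the highest), and the upstream kinases and heat shock genes stay between -0.86 and 0.96.

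Between cultures the same lists held few calls. Of the other inducible transcription factors, 0 rose and 1 fell in each comparison among 21 tested. Over all tested probes, 0.775% rose and 1.02% fell in KD1 against CON. Against WT, 0.285% rose and 0.764% fell in KD1, and for WT against CON the shares were 0.778% and 0.594%. CEBPD, a C/EBP factor of the acute phase response, fell in KD1 against CON by 1.43 on the log2 scale (-1.32 and -1.53 in the replicates, adjusted p = 0.0177) and in WT against CON by 1.19 (adjusted p = 0.0433). MAFK fell in KD1 against WT by 1.68 (adjusted p = 0.0249). ID1, an inhibitor of basic helix-loop-helix factors, had replicates of opposite sign in KD1 vs CON, 0.98 and -1.82 (adjusted p = 0.805). The list medians, 0.15, 0.33 and -0.03 for KD1 vs CON, KD1 vs WT and WT vs CON, stood beside -0.01, 0.01 and -0.03 for all tested probes.

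Among the induced effectors, 2 of 30 fell in KD1 against CON, and 2 of 31 fell against WT. ARC, a synaptic early gene, fell in KD1 by 2.53 against CON (adjusted p = 0.00305) and by 1.83 against WT (adjusted p = 0.0200). ARC was dim in KD1, at levels of 4.65 and 5.02, and not well above background in every channel. CCL2, a monocyte chemokine, fell by 2.36 (adjusted p = 0.00305) and 1.67 (adjusted p = 0.0218). With normexp and loess 1 probe in all was called in KD1 vs WT, so MAFK, ARC and CCL2 cannot all have kept their calls there. In WT against CON none of 31 passed, with 9 at an unadjusted p under 0.05, beside 16.5% of all tested probes.

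No feedback inhibitor passed in any comparison, with 8 of 21, 7 of 23 and 6 of 22 at an unadjusted p under 0.05 in KD1 vs CON, KD1 vs WT and WT vs CON. Over all tested probes these shares were 17.2%, 17.2% and 16.5%, which also stand beside the counts for kinases and heat shock genes that follow. SOCS3, an inhibitor of cytokine signalling, gave -1.56 against CON and -1.32 against WT (adjusted p = 0.0587 and 0.114), and DUSP10, a phosphatase of stress kinases, gave 0.90 and 1.09 (adjusted p = 0.0923 and 0.0755). SPRY2, a brake on receptor signalling, gave 1.07 in WT vs CON (adjusted p = 0.0930). No upstream kinase or partner passed among 27, with 3, 3 and 2 at an unadjusted p under 0.05. RPS6KA3, a kinase below ERK, was at 0.83 in KD1 vs CON (adjusted p = 0.0935), RPS6KA1 at 0.93 in WT vs CON (adjusted p = 0.107) and BRAF at 0.77 in KD1 vs WT (adjusted p = 0.140). No heat shock gene passed among 12, with 4, 1 and 3 at an unadjusted p under 0.05, HSPH1 standing at 1.07 in WT vs CON (adjusted p = 0.109), HSPA6 at 0.92 in KD1 vs CON (adjusted p = 0.195) and HSPD1 at 0.88 in WT vs CON (adjusted p = 0.163).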

How the data were processed

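The authors hybridized labelled RNA of 3 cultures in pairs on Agilent two-colour arrays of 41000 gene probes, scanned them and extracted them with Feature Extraction 10.5.1.1. The deposited processed signals are intensities, background-subtracted, detrended and lowess dye-normalized within the array by the authors, with surrogate values for spots not above background. The deposited LogRatio column is a log10 ratio and was not used, and the deposited series value table holds log2 ratios of the same signals turned to the first culture, used as an alternative. The deposited mean signals and local background intensities served the alternatives. Sources used here state no batch beyond the slide.

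Log2 ratios of red over green processed signal were turned to the first culture and averaged over each dye-swap pair, which gave 6 replicate values from 12 arrays. They were fitted in limma 3.58.1 (R 4.3.3) with a coefficient per comparison, shared spread and residual degrees of freedom set to 2 in place of 3, since the 3 comparisons of a replicate share extracts. This was set by hand, and the separate-channel alternatives fit the 6 extracts directly. Benjamini-Hochberg adjustment at 0.05 ran over all probes whose signal exceeded, in 1 channel or both on each array compared, a limit below which 99% of the 153 negative control spots lay. Spots of a probe were averaged, the brightest probe stood for a gene, and flagged spots (95 to 188 per array) were left out. Levels per extract are Aquantile-normalized separate channels. The fit was tested on simulated data with planted changes past 2-fold and the same spread in all 3 cultures. That test does not bear on smaller changes or on unequal spread. Array probe positions are those of the scanner files on NCBI36.

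The labels call the samples biological replicates and do not say what separated them, so the spread between 2 samples may in part be technical. The p-values and standard errors use a spread per probe that the 3 comparisons share. Those of KD1 vs CON therefore also carry the spread of the arrays with WT, and their size depends on it. With either WT extract left out, that spread rests on the KD1 vs CON replicates alone. No member passed then either, although the adjusted p-values of the 7 tested members were lower. Each printed SD is that of its own comparison. Samples of the same replicate number were hybridized together. The ratios and p-values therefore compare cultures of the same number. Replicate differences of KD1 and CON correlated and those with WT did not, so that a pairing by number beyond the arrays was not established. Members and gene lists were chosen with earlier results of these data known. The text names all members, list genes past the threshold (with fewer than 3, the 3 of largest mean change), and the 5 genes most like FOS. HES1, NR4A1, EGR4, MAFF and NFKBIA were named after their replicate differences were seen, as were the replicate differences as a measure. Of the list genes past the threshold, 1 is not reported here. The number of arrays limits the precision.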

Additional observations from a re-analysis of the deposited data

How the results depend on the processing

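No member passed the adjusted threshold in any comparison under any alternative run. Numbers of probes called were 393, 261 and 365 in KD1 vs CON, KD1 vs WT and WT vs CON. They were 26, 1 and 2 with normexp background correction and loess, 175, 110 and 136 with median centring, 254, 183 and 200 without a filter on dim probes, 304, 200 and 249 with probes well above background in both channels, and 394, 259 and 368 from the authors' value table. With 12 arrays and a dye effect per slide they were 1006, 1019 and 1092. Separate channels gave 202, 126 and 114 without a replicate block and 168, 110 and 102 with the replicate block. Across-probe correlations of replicate differences (0.54, -0.06 and -0.01) did not establish a pairing by number. The cause of these shifts was not tested. Of the members, FOSB in WT vs CON moved from -1.05 to -0.27 and EGR2 from -1.20 to -0.66 with normexp and loess, as did EGR2 in KD1 vs WT from 1.19 to 0.64. Without each extract in turn the counts ran from 114 to 462, from 21 to 531 and from 4 to 946, lowest without CON replicate 2 in the first and without WT replicate 1 in the others. Without WT replicate 2 the count was 36 for KD1 vs WT and 5 for WT vs CON.

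Leaving out an extract left 1 replicate value in each comparison that uses it, and directions of uncalled members reversed within these ranges: in KD1 vs CON, FOS from -0.45 to 0.25, EGR1 from -0.0632 to 0.26, JUN from -0.45 to 0.27 and DUSP1 from -0.67 to 0.0561; in KD1 vs WT, FOS from -0.36 to 2.04, FOSL1 from -0.70 to 1.20, IER3 from -0.32 to 0.0422 and JUNB from -0.32 to 0.56; in WT vs CON, FOS from -2.59 to 0.62 and FOSL1 from -1.06 to 1.56. EGR1 in KD1 vs WT ran from 0.79 to 2.54 and EGR2 from 0.02 to 2.37. No member reversed under any of the other alternatives. With 2 extracts per culture, a lone remaining value was assumed to vary like the others.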
